A study of Mus musculus with 5 samples.

Results

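The data on 10 genes of the tumor necrosis factor (TNF) ligand and receptor superfamily come from RNA sequencing of CD4 single positive (CD4 SP) cells, the mature thymocytes that retain CD4 but not CD8. The 10 genes, out of 55487 gene identifiers counted, were taken by symbol. They are the receptors *Fas*, *Tnfrsf1b*, *Tnfrsf4*, *Tnfrsf9*, *Tnfrsf18* and *Cd27* and the ligands *Cd40lg*, *Tnfsf8*, *Tnfsf11* and *Tnfsf14*. The cells came from the thymus of mice of the C57BL/6J strain, 3 of them wild type (WT) and 2 *Tet2/3* DKO, and each mouse gave 1 library. The DKO mice carry *Tet2*-/- and *Tet3*flx/flx alleles with CD4cre, so that *Tet2* is missing in all cells of the mouse and *Tet3* is deleted only in cells in which the *Cd4*-driven Cre recombinase has been active. The methods of the study give the age of the mice as 21 to 30 days. Cells with low CD24 that were positive for CD4 and TCRβ, and negative for CD8 and for the αGalCer-loaded CD1d tetramer, were sorted before RNA was isolated. The comparison asks how the transcripts of CD4 SP cells change when TET2 and TET3, enzymes that oxidize methylated cytosine at CpG sites, are lost.

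Ligands of the TNF superfamily are mostly trimeric membrane proteins, and many of their receptors signal through TRAF adaptors to NF-κB. Some receptors that hold a death domain signal to FADD and caspase-8. In the thymus, OX40, 4-1BB and GITR, the products of *Tnfrsf4*, *Tnfrsf9* and *Tnfrsf18*, are displayed by cells that have received strong TCR signals and by developing regulatory T cells. RANK ligand (*Tnfsf11*) and CD40 ligand (*Cd40lg*) of CD4 SP cells act on medullary epithelial cells and on antigen presenting cells.

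Reads counted on genes ranged from 17607089 to 27267031 per library. *Tet3* had 43.8, 45.6 and 52.5 CPM (TMM-normalised counts relative to the size of the library) in WT and 19.98 and 13.2 in DKO cells, for a log2 fold change of -1.50 (standard error, SE, 0.18) and an adjusted p of 0.00121 in the quasi-likelihood test of edgeR. *Tet2* was not lower in the DKO libraries, and a count over the whole gene cannot test for a missing exon. Of the libraries, 2 went against the sex in their labels. WT replicate 1, labelled female, had 0 *Xist* counts and 6821 counts of 4 Y-linked genes, and *Tet2/3* DKO replicate 1, labelled male, had 744 *Xist* counts and 7 Y-linked counts. The methods of the study give all mice as male, so that WT replicate 1 goes against its label alone and DKO replicate 1 against both sources. WT replicates 2 and 3 had 2 and 1 *Xist* counts and 6691 and 7041 Y-linked counts, and DKO replicate 2 had 0 and 5101. By these counts WT replicate 1 was like them, and only DKO replicate 1 differed. Each member is also given without both libraries with a label conflict, called libraries of uncertain sex below, a setting chosen after seeing the data. In it 2 WT libraries are set against 1 DKO library that is assumed to vary like them. No DKO library can be left out without this assumption.

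*Tnfsf8*, which encodes CD30 ligand, rose upon loss of TET2 and TET3 and was the only one of the 10 members past the adjusted p threshold of 0.01 (1 of 10). Over all 13525 genes tested, 3.92% were past it, 2.42% higher and 1.5% lower in DKO cells. The receptors *Fas*, *Tnfrsf1b*, *Tnfrsf4*, *Tnfrsf9* and *Tnfrsf18* and the ligand *Cd40lg* lay below all WT libraries in both DKO libraries but did not pass this threshold. *Cd27* and *Tnfsf11* overlapped between the genotypes. Groups that did not overlap were thus seen for 6 members in the lower direction and 2 in the higher, where 19.5% and 19.6% of all genes tested had such groups. The median log2 fold change of the members was -0.37, against 0.008 over all genes tested. At a threshold of 0.05, 4 members passed, *Tnfsf8* higher and *Fas*, *Cd40lg* and *Tnfrsf18* lower, with 8.67% of all genes past it. DESeq2, run as an alternative, called these 4 and *Tnfsf14* at 0.01, with 6.91% of all genes called. The test rests on the spread between mice, of which the DKO group had 2. In RNA of a whole sorted population, fewer cells that express a gene and less RNA of it per cell cannot be told apart.

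The promoters of the called ligand and of the neighbouring receptors with the lower counts are shown because TET proteins act on CpG sites. Each is the 300 bases around a RefSeq transcription start, most of them upstream of it, written 5′ to 3′ (GRCm38.p6), with CpG sites in capitals. The first is *Tnfsf8* (chr4:63861235-63861534, minus strand), the second *Tnfrsf4* (chr4:156013445-156013744, plus strand) and the third *Tnfrsf18* (chr4:156026072-156026371, plus strand).
Tnfsf8: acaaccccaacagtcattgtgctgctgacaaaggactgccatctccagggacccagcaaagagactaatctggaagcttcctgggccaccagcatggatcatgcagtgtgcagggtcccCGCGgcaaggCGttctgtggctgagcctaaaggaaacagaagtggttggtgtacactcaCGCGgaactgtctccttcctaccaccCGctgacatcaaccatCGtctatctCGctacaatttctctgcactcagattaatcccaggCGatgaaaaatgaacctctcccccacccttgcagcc
Tnfrsf4: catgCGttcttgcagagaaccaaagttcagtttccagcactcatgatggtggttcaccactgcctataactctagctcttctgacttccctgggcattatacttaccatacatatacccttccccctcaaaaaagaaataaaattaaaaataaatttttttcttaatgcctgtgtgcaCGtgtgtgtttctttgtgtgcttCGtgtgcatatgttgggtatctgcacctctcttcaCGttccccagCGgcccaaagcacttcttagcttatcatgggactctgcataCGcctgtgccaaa
Tnfrsf18: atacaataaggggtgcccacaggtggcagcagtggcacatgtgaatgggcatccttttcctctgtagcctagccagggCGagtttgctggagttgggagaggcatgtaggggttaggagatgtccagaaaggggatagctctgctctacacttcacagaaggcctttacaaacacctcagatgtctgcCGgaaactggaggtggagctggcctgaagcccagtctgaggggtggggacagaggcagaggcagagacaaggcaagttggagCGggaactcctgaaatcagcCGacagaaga

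The *Tnfsf8* window held 9 CpG sites, that of *Tnfrsf4* 6 and that of *Tnfrsf18* 4. The *Tnfrsf4* window ends before the start of the gene model used here for lengths. Of the 10 members 9 had a RefSeq promoter, 10 windows in all since *Tnfrsf9* has 2, and *Cd40lg* is named only. Their CpG counts ran from 4 to 14, with the highest in *Fas* (14) and *Tnfrsf1b* (13). Over 32851 promoters of 27025 genes the median was 7 CpG sites (quartiles 3 and 20). The sequence TGANTCA, bound by AP-1, was found on either strand in the windows of 3 members, *Fas*, *Tnfsf14* and the second of *Tnfrsf9*, and in 7.81% of all promoters. The sequence TGTGGT, bound by RUNX factors, was found for *Tnfsf14* and the same window of *Tnfrsf9*, and in 16.8% of all promoters. The GATA sequence AGATAA was in no member's window and in 11.2% of all promoters. The NF-κB motif was found only in that window of *Tnfrsf9* among the members, and in 8.46% of all promoters. These are letters in a window, and methylation of these promoters was not analysed here.

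**Figure D1:**
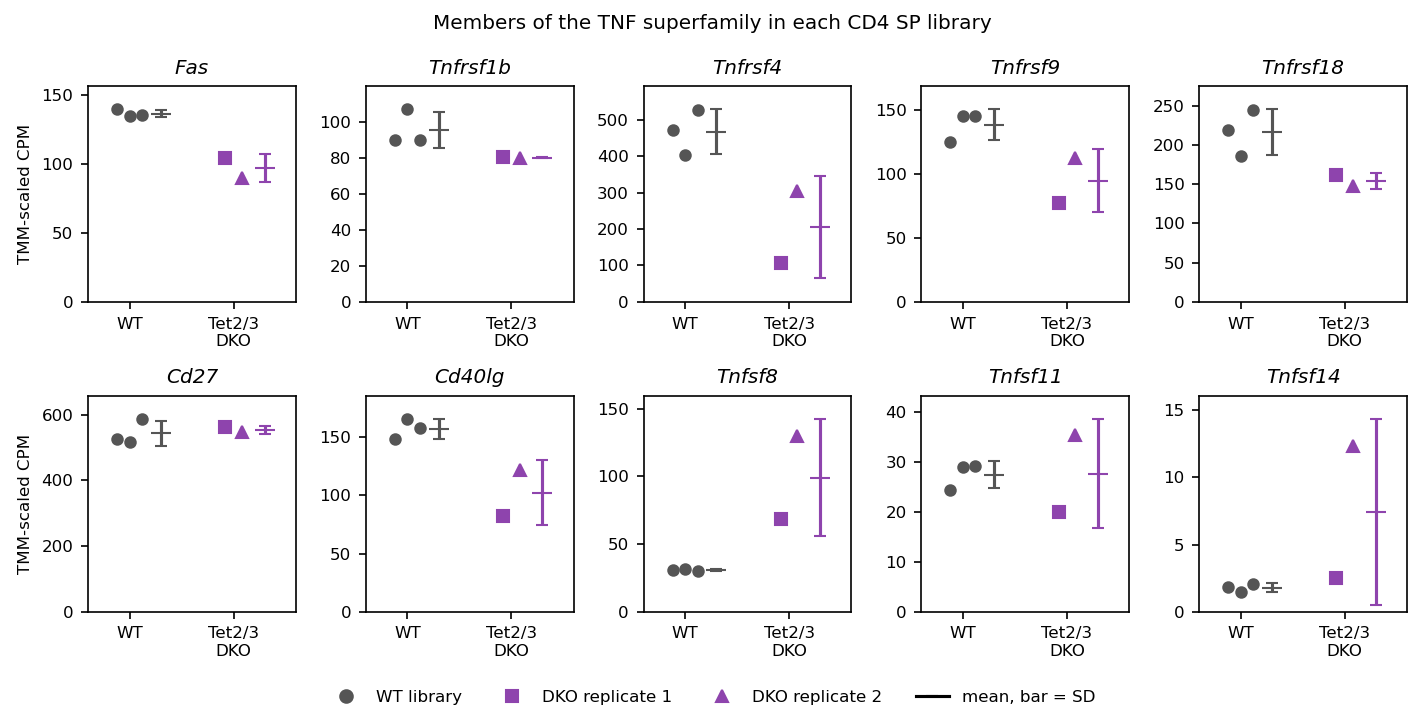
Level of each of the 10 members in each library, in TMM-scaled CPM on axes that start at 0, with WT libraries as circles, *Tet2/3* DKO replicate 1 as a square and replicate 2 as a triangle; the dash and bar beside them are the mean and SD (n = 3 WT, n = 2 DKO). *Tnfsf8* lies near 31 CPM in every WT library and at 68.4 and 129.6 in DKO, and *Tnfrsf4* is unequal between the DKO libraries, at 107 and 305.

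Among the receptors, *Fas* (ENSMUSG00000024778, chromosome 19 from 34290666 to 34327772 of GRCm38) encodes a death domain receptor through which activated lymphocytes are removed. Its CPM was 139.6, 134 and 135 in WT replicates 1, 2 and 3, and 104 and 89.7 in DKO replicates 1 and 2. Both DKO libraries lay well under the narrow WT range. Against WT, the log2 fold change was -0.49 (SE 0.10, 95% interval -0.71 to -0.27), with an adjusted p of 0.0147 by edgeR and 9.34e-05 by DESeq2. Without the libraries of uncertain sex it was -0.59, with an adjusted p of 0.00481, and without DKO replicate 1 alone it was -0.61 (adjusted p = 0.00138). It did not pass without DKO replicate 2 (-0.40, adjusted p = 0.0243) or without WT replicate 1, 2 or 3 (adjusted p = 0.0882, 0.0563 and 0.059).

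*Tnfrsf1b* (ENSMUSG00000028599, chromosome 4 from 145213463 to 145246870) encodes TNF receptor 2, which lacks a death domain and is found on T cells. It had 89.7, 107 and 89.8 CPM in WT and 80.2 and 79.95 in DKO cells. The DKO values were close to each other and under every WT value. On the log2 scale, the change was -0.25 (SE 0.11, adjusted p = 0.206 by edgeR), and -0.31 without the libraries of uncertain sex.

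*Tnfrsf4* (ENSMUSG00000029075, chromosome 4 from 156013843 to 156016612), which encodes the costimulatory receptor OX40, had the lowest log2 fold change of the members. Its CPM was 472, 403 and 526 in WT and 107 and 305 in DKO cells. Both DKO libraries were under every WT library, and they differed from each other by more than the WT libraries did. DKO replicate 2 had 2.84 times the level of replicate 1, while the highest WT library had 1.31 times the lowest. The log2 fold change was -1.18 (SE 0.34, 95% interval -1.96 to -0.41, adjusted p = 0.0689 by edgeR and 0.167 by DESeq2). It was -0.62 without DKO replicate 1 (adjusted p = 0.00318) and -2.14 without DKO replicate 2 (adjusted p = 5.49e-08), so that its size differed between the DKO mice. With 1 DKO library its own spread is not seen, and the lower adjusted p values rest on the WT spread. Without both libraries of uncertain sex the log2 fold change was -0.62 (adjusted p = 0.000596).

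*Tnfrsf18* (ENSMUSG00000041954, chromosome 4 from 156026164 to 156028895), which encodes GITR, is the neighbour of *Tnfrsf4* on chromosome 4, 9.551 kb away with 0 protein-coding genes between them. It had 219, 185 and 244 CPM in WT and 161 and 147 in DKO cells. The groups did not overlap, and here DKO replicate 2 was the lower one, unlike at *Tnfrsf4*. Against WT, the log2 fold change was -0.49 (SE 0.12, 95% interval -0.76 to -0.21), with an adjusted p of 0.0394 by edgeR and 0.00344 by DESeq2. Without the libraries of uncertain sex it was -0.55 (adjusted p = 0.00599), and with 1 library left out the adjusted p did not pass in any of the 5 cases. Of its exon bases 27.17% overlap an antisense gene, *Gm16008*, and reads there were not counted without regard to strand. With reads of the first or the second strand column alone the log2 fold change was -0.47 or -0.52.

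*Tnfrsf9* (ENSMUSG00000028965, chromosome 4 from 150914562 to 150946102) encodes 4-1BB, a costimulatory receptor that is induced by TCR signals. Its CPM was 125, 145.6 and 145.5 in WT and 77.4 and 112 in DKO cells. Both DKO libraries lay under the WT range, with replicate 1 the lower. On the log2 scale, the change was -0.55 (SE 0.15, 95% interval -0.90 to -0.21, adjusted p = 0.0591 by edgeR and 0.0113 by DESeq2). It was -0.31 without DKO replicate 1 (adjusted p = 0.129), -0.86 without DKO replicate 2 (adjusted p = 0.000277) and -0.38 without the libraries of uncertain sex (adjusted p = 0.119).

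*Cd27* (ENSMUSG00000030336, chromosome 6 from 125232622 to 125237010), a costimulatory receptor that thymocytes carry through most of their development, stayed within the WT range. It had 526, 518 and 587 CPM in WT and 563 and 546 in DKO cells. The log2 fold change was 0.03 (SE 0.09, adjusted p = 0.891 by edgeR), and its 95% interval ran from -0.17 to 0.22. Without the libraries of uncertain sex it was -0.03.

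Regulatory T cells, which carry high levels of *Tnfrsf4*, *Tnfrsf9* and *Tnfrsf18*, fall within the sort. Their defining marker *Foxp3*, of whose exon bases 31.53% overlap another gene, had 44.4, 58.1 and 54.3 CPM in WT and 17.9 and 24.3 in DKO cells, or a log2 fold change of -1.31 (SE 0.17, adjusted p = 0.00191 by edgeR). It was the only one of 8 regulatory T cell markers past the threshold with all libraries. Without DKO replicate 2, *Il2ra*, *Ctla4* and *Capg* were lower and *Ikzf2* higher past it, and without DKO replicate 1, *Ctla4* and *Nrp1* were higher past it. *Il2ra*, which encodes CD25, had 34.2, 33.7 and 37.4 CPM in WT and 11.4 and 38.3 in DKO cells, so that DKO replicate 1 alone was low. *Ctla4* was also low in DKO replicate 1, and above the WT range in DKO replicate 2, with 46.9, 46.1 and 52.1 CPM in WT and 30.9 and 72.9 in DKO cells. The summed CPM of the 8 markers was 463 to 475 in WT, 295 in DKO replicate 1 and 489 in DKO replicate 2, and none was at 0. More than any other gene, *Capg* made up this sum, with 288, 260.3 and 243 CPM in WT and 153 and 256 in DKO cells. *Ikzf2*, of the same list, went the other way, with 20.4, 24.1 and 27.4 CPM in WT, 43.2 in DKO replicate 1 and 18.3 in DKO replicate 2, and *Nrp1* was within the WT range in DKO replicate 1 (20.6 CPM). DKO replicate 1, where the sum and some of its markers were low, is also the library with the lowest *Tnfrsf4* and *Tnfrsf9*. *Tnfrsf18* was instead lowest in DKO replicate 2, at 147 CPM against 161 in DKO replicate 1. The part of regulatory T cells in the lower receptor levels was not tested.

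**Figure D2:**
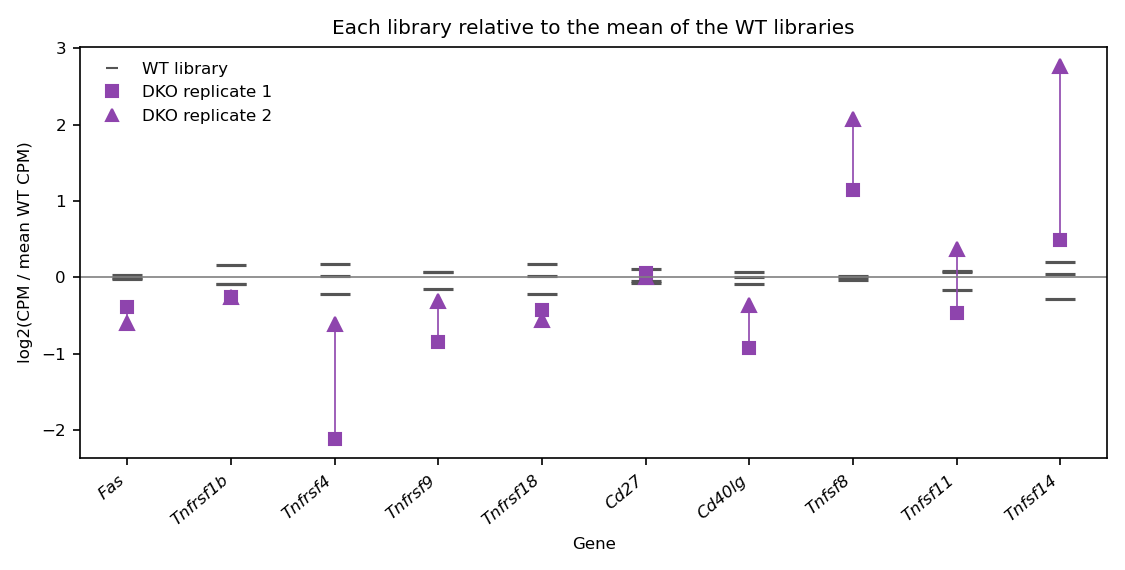
Log2 ratio of each library's CPM to the mean of the 3 WT libraries for the 10 members, with WT libraries as dashes, *Tet2/3* DKO replicate 1 as squares and replicate 2 as triangles, joined by a line. The DKO libraries lie apart at *Tnfrsf4* (-2.12 and -0.61) and *Tnfsf14* (0.49 and 2.77) and together at *Tnfrsf1b* and *Cd27*.

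Among the ligands, *Cd40lg* (ENSMUSG00000031132, chromosome X from 57212143 to 57224042), through which helper T cells activate B cells and antigen presenting cells, was lower in both DKO libraries. It had 148, 165 and 157.5 CPM in WT and 82.4 and 122 in DKO cells. Both DKO libraries were under the WT range, replicate 1 more so. Against WT, the log2 fold change was -0.62 (SE 0.15, 95% interval -0.96 to -0.28), with an adjusted p of 0.0348 by edgeR and 0.00236 by DESeq2. This gene is X-linked, and DKO replicate 1 is the library with *Xist* counts. Without that library the log2 fold change was -0.37 (adjusted p = 0.0457), without DKO replicate 2 it was -0.95 (adjusted p = 5.87e-05), and without both libraries of uncertain sex -0.41 (adjusted p = 0.0789).

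*Tnfsf8* (ENSMUSG00000028362, chromosome 4 from 63831308 to 63861347) is the ligand of CD30 and is found on activated T cells. Its CPM was 31.02, 31.3 and 30.1 in WT and 68.4 and 129.6 in DKO cells, from 802, 743 and 827 counts in WT and 1435 and 2317 in DKO. The WT libraries hardly differed, and both DKO libraries lay far above them. The rise was 3.20-fold, which is a log2 fold change of 1.68 (SE 0.22, 95% interval 1.18 to 2.18), with an adjusted p of 0.00195 by edgeR and 1.55e-11 by DESeq2. It was 2.07 without DKO replicate 1 and 1.14 without DKO replicate 2, both past the threshold, and 2.07 without both libraries of uncertain sex. The call at 0.01 was lost when WT replicate 1, 2 or 3 was left out (adjusted p = 0.0149, 0.0263 and 0.0255) and with robust dispersion moderation (0.0148), at log2 fold changes of 1.66 to 1.69.

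*Tnfsf14* (ENSMUSG00000005824, chromosome 17 from 57189492 to 57194177), which encodes LIGHT, was the most unequal member between the DKO mice. It had 1.86, 1.48 and 2.08 CPM in WT and 2.53 and 12.3 in DKO cells, from 48, 35 and 57 counts in WT and 53 and 220 in DKO. DKO replicate 2 stood 4.87 times above replicate 1, which was only just above the WT range. On the log2 scale, the change was 1.98 (SE 0.59, 95% interval 0.65 to 3.30), with an adjusted p of 0.0743 by edgeR and 0.0059 by DESeq2. Without DKO replicate 2 it was 0.46 (adjusted p = 0.454), without DKO replicate 1 2.75 (adjusted p = 6.48e-07) and without both libraries of uncertain sex 2.77.

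*Tnfsf11* (ENSMUSG00000022015, chromosome 14 from 78277445 to 78308043), which encodes RANK ligand, had 24.4, 28.9 and 29.1 CPM in WT and 19.9 and 35.4 in DKO cells. One DKO library lay below the WT range and the other above it. The log2 fold change was -0.00 (SE 0.22, adjusted p = 0.998 by edgeR), with a 95% interval from -0.49 to 0.49. It was 0.36 without DKO replicate 1, -0.48 without DKO replicate 2 and 0.28 without the libraries of uncertain sex.

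Levels of different members were compared per kb of merged exons. In WT cells *Tnfrsf4* was highest at a mean of 342 CPM per kb, followed by *Cd27* (233.5), *Tnfrsf18* (142), *Cd40lg* (126), *Fas* (66.1), *Tnfrsf9* (50.9), *Tnfrsf1b* (25.0), *Tnfsf11* (12.3), *Tnfsf8* (8.10) and *Tnfsf14* (0.976). Only *Tnfrsf18* and *Cd40lg* overlapped with their neighbour in this order over the 3 libraries. In DKO cells *Cd27* was highest (238) and *Tnfrsf4* second (151, from 78.6 to 223), overlapping with *Tnfrsf18* (101), which overlapped with *Cd40lg* (81.7). *Tnfsf8*, at 26.0, stood above *Tnfrsf1b* (20.98) in the order of the DKO means, and it overlapped over the 2 libraries with both *Tnfrsf1b* and *Tnfrsf9* (34.8). *Fas* (47.1), *Tnfsf11* (12.4) and *Tnfsf14* (4.02) kept apart from their neighbours. Because reads in overlapping exons are not counted, the level of *Tnfrsf18* per kb is a low estimate.

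Binding partners of the members were measured in the same cells. *Tnfsf4*, the ligand of OX40, rose in DKO cells, while its receptor was lower in both DKO libraries without passing the threshold. It had counts of 36, 24 and 30 in WT replicates and of 105 and 135 in DKO replicates, 1.39, 1.01 and 1.09 CPM against 5.01 and 7.55. Both DKO libraries were above all WT libraries. Against WT, the log2 fold change was 2.40 (SE 0.32, adjusted p = 0.002 by edgeR). The call was lost without WT replicate 1, 2 or 3 (adjusted p = 0.0135, 0.0259 and 0.0223), with log2 fold changes of 2.32 to 2.55. Without the libraries of uncertain sex it was 2.83.

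*Cd40*, the receptor of CD40 ligand on B cells and antigen presenting cells, had counts of 22, 8 and 5 in WT replicates and of 35 and 35 in DKO replicates, or a log2 fold change of 1.98 (SE 0.52, adjusted p = 0.0471 by edgeR), and 2.91 without the libraries of uncertain sex (adjusted p = 0.000171). With 1 library left out *Cd40* did not pass in any of the 5 cases. *Tnfsf9*, the ligand of 4-1BB, had counts of 58, 45 and 47 in WT replicates and of 48 and 125 in DKO replicates, or a log2 fold change of 1.20 (SE 0.45, adjusted p = 0.145 by edgeR). Without DKO replicate 2 that of *Tnfsf9* was 0.22 (adjusted p = 0.756), and without DKO replicate 1 it was 1.84 (adjusted p = 0.000245). Both genes had few counts in these cells, and *Tnfsf9* was high in 1 of the DKO libraries.

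*Cd40* and the OX40 and 4-1BB ligands are abundant in antigen presenting cells. The 8 myeloid and dendritic cell markers summed to 7.51 to 13.2 CPM in WT and to 23.6 and 51.0 in DKO cells. Of these markers 5 were higher in both DKO libraries than in all WT libraries, among them *Adgre1* and *Siglech*, which had too few counts to be tested. None of the 4 markers tested passed the threshold with all libraries. *Lyz2* was past it, higher, without DKO replicate 1 or 2, and *Cd68* without DKO replicate 1. *Lyz2* made up most of these sums, and *Siglech* and *Clec9a* were at 0 in all WT libraries. *Csf1r*, a defining marker of macrophages, had counts of 7, 2 and 1 in WT replicates and of 15 and 19 in DKO replicates. The 5 B cell markers summed to 5.61 to 6.96 CPM in WT and to 9.11 and 8.62 in DKO cells, and neither of the 2 tested was called. *Cd79b* carried the higher sums, while *Cd79a* was lower in both DKO libraries than in all WT libraries, at 1.53 and 1.40 CPM against 1.74 to 3.17. Their part in the levels of *Cd40*, *Tnfsf4* and *Tnfsf9* was not tested.

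The partners of *Fas* and TNF receptor 2 did not pass the threshold. *Fasl*, the ligand of FAS, had 8.55, 7.63 and 13.2 CPM in WT and 10.5 and 11.3 in DKO cells (log2 fold change 0.15, SE 0.25, adjusted p = 0.791 by edgeR). *Tnf* had 9.52, 8.81 and 8.60 CPM in WT and 4.15 and 8.62 in DKO cells (-0.52, SE 0.28, adjusted p = 0.316), and it was low in DKO replicate 1 alone. Without DKO replicate 2 it was -1.13 (adjusted p = 0.00544) and without DKO replicate 1 it was -0.06 (0.909). *Lta*, which encodes lymphotoxin alpha, had 46.03, 48.2 and 49.6 CPM in WT and 39.2 and 30.8 in DKO cells (-0.45, SE 0.13, adjusted p = 0.0654). Without DKO replicate 1 that of *Lta* was -0.64 (adjusted p = 0.0044), and without DKO replicate 2 it was -0.31 (0.14). The *Lta* groups did not overlap, while those of *Fasl* and *Tnf* did.

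Most receptors of the ligands other than *Tnfrsf14* had few counts. *Tnfrsf8*, which encodes CD30, had counts of 5, 14 and 18 in WT replicates and of 2 and 14 in DKO replicates (log2 fold change -0.22, SE 0.78, adjusted p = 0.914 by edgeR), so that the rise of its ligand stood beside a receptor near the detection limit of these libraries. *Tnfrsf14*, which encodes HVEM, a receptor of LIGHT, had 6.19, 7.63 and 6.12 CPM in WT and 7.34 and 5.04 in DKO cells (-0.08, SE 0.24, adjusted p = 0.888). *Ltbr*, the other receptor of LIGHT, had at most 3 counts in any library. *Tnfrsf11a*, which encodes RANK, had counts of 1, 5 and 2 in WT replicates and of 0 and 1 in DKO replicates, and *Tnfrsf11b*, the decoy receptor osteoprotegerin, was at 0 in all 5 libraries. *Tnfsf18*, the ligand of GITR, was also at 0 in all libraries. *Cd70*, the ligand of CD27, had counts of 0, 0 and 1 in WT replicates and of 0 and 10 in DKO replicates. A count of 0 allows up to 3 counts in a library, and the low genes *Cd70*, *Ltbr* and *Tnfrsf11a* were not tested.

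**Figure D3:**
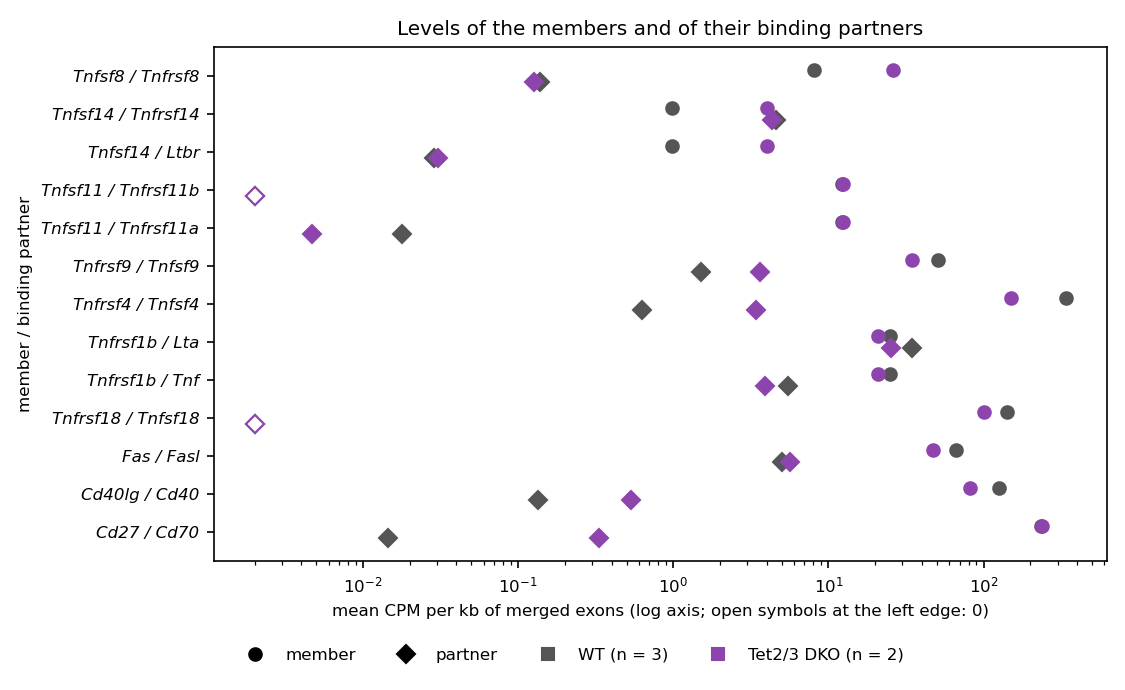
Mean level of each member (circle) and its binding partner (diamond) in WT (grey, n = 3) and *Tet2/3* DKO cells (purple, n = 2), in CPM per kb of merged exons on a log axis; open symbols at the left edge stand for 0, and where only 1 color is seen the genotypes lie on top of each other. The DKO symbol of *Tnfsf4* lies to the right of its WT symbol and that of *Tnfrsf4* to the left, and the partner of most members lies far to the left of the member.

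*Tnfsf14*, *Cd70* and *Tnfsf9* lie next to each other on chromosome 17, with gaps of 39.71 kb and 38.24 kb and 0 protein-coding genes between neighbours. In all 3 genes the highest count was that of DKO replicate 2, with 220, 10 and 125 counts there against 53, 0 and 48 in DKO replicate 1. Other members also have superfamily neighbours. *Tnfsf8* lies 86.19 kb from *Tnfsf15*, which had too few counts to be tested, and *Tnfrsf1b* lies 20.27 kb from *Tnfrsf8*. Of the 10 members 5 are on chromosome 4.

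Beyond the members, 36 further ligands and receptors were listed, 22 receptors and 14 ligands. Of these, 15 receptors and 7 ligands passed the filter on low counts. In each group 1 gene passed the threshold, *Tnfrsf26* among the receptors and *Tnfsf4* among the ligands (1 of 15 and 1 of 7, against 3.92% of all genes tested). *Tnfrsf26*, a mouse receptor related to the decoy receptors for TRAIL, had 50.8, 44.6 and 47.3 CPM in WT and 69.5 and 90.3 in DKO cells, or a log2 fold change of 0.74 (SE 0.13, adjusted p = 0.00754 by edgeR). Its call was lost without WT replicate 1, 2 or 3 (adjusted p = 0.0335, 0.0544 and 0.0513) and without the filter on low counts (0.0108). Without the libraries of uncertain sex the log2 fold change was 0.97. DESeq2 called *Tnfrsf26*, *Tnfsf4* and *Tnfsf10*, 3 in all, where it called 6.91% of all genes. *Tnfsf10*, which encodes TRAIL and is named for that call after its value was seen, had 5.72, 7.04 and 6.12 CPM in WT and 11.1 and 13.4 in DKO cells, for a log2 fold change of 0.95 (SE 0.19, adjusted p = 0.0148 by edgeR and 0.00114 by DESeq2). Without DKO replicate 1 it was 1.09 (adjusted p = 0.00143) and without DKO replicate 2 it was 0.80 (0.0174). Both genes called by edgeR rose. Of the 32 ligands and receptors tested, members included, 0 fell past 0.01 by edgeR and 3 by DESeq2 (the members *Fas*, *Cd40lg* and *Tnfrsf18*), where 1.5% of all genes fell past it by edgeR and 2.99% by DESeq2. *Tnfrsf21*, which encodes death receptor 6, had counts of 7, 10 and 5 in WT replicates and of 25 and 14 in DKO replicates, groups that did not overlap (log2 fold change 1.79, SE 0.51, adjusted p = 0.0641).

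Of the remaining genes, 7 receptors and 7 ligands had too few counts to be tested, 6 of them at 0 in every library. *Tnfsf12* and *Tnfsf13* were among those at 0, and 48.25% and 60.05% of their exon bases overlap the readthrough gene *Tnfsfm13*, and reads there are counted for none of them. Among the 32 ligands and receptors tested, 12 were higher and 10 lower in both DKO libraries than in all WT libraries, where 19.6% and 19.5% of all genes tested were, and the median log2 fold change was 0.049.

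Adaptors and kinases that carry the signal below the receptors were read from the same fit. None of the 16 adaptor genes listed passed the threshold by edgeR's test (0 of 16), a share near the 3.92% of all genes, and 5 had an unadjusted p under 0.05, as did 23% of all genes tested. DESeq2 called 1 of the 16, and 6.91% of all genes. That gene was *Map3k14*, which encodes the NIK kinase of the alternative NF-κB pathway, with 22.3, 27.3 and 23.9 CPM in WT and 16.3 and 14.99 in DKO cells. Both DKO values were under the WT range, at a log2 fold change of -0.65 (SE 0.15, adjusted p = 0.028 by edgeR and 0.0024 by DESeq2). It was named for the DESeq2 call after its value was seen. Log2 fold changes of the adaptors ran from -0.65 to 0.91, with a median of -0.01. Leaving out DKO replicate 2 brought *Tnfaip3* and *Traf1* past the threshold, at log2 fold changes of 1.49 and -0.61, 2 adaptors in all, while without DKO replicate 1 they were -0.17 and -0.20 (adjusted p = 0.688 and 0.349). Both are likewise named after their values were seen.

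**Figure D4:**
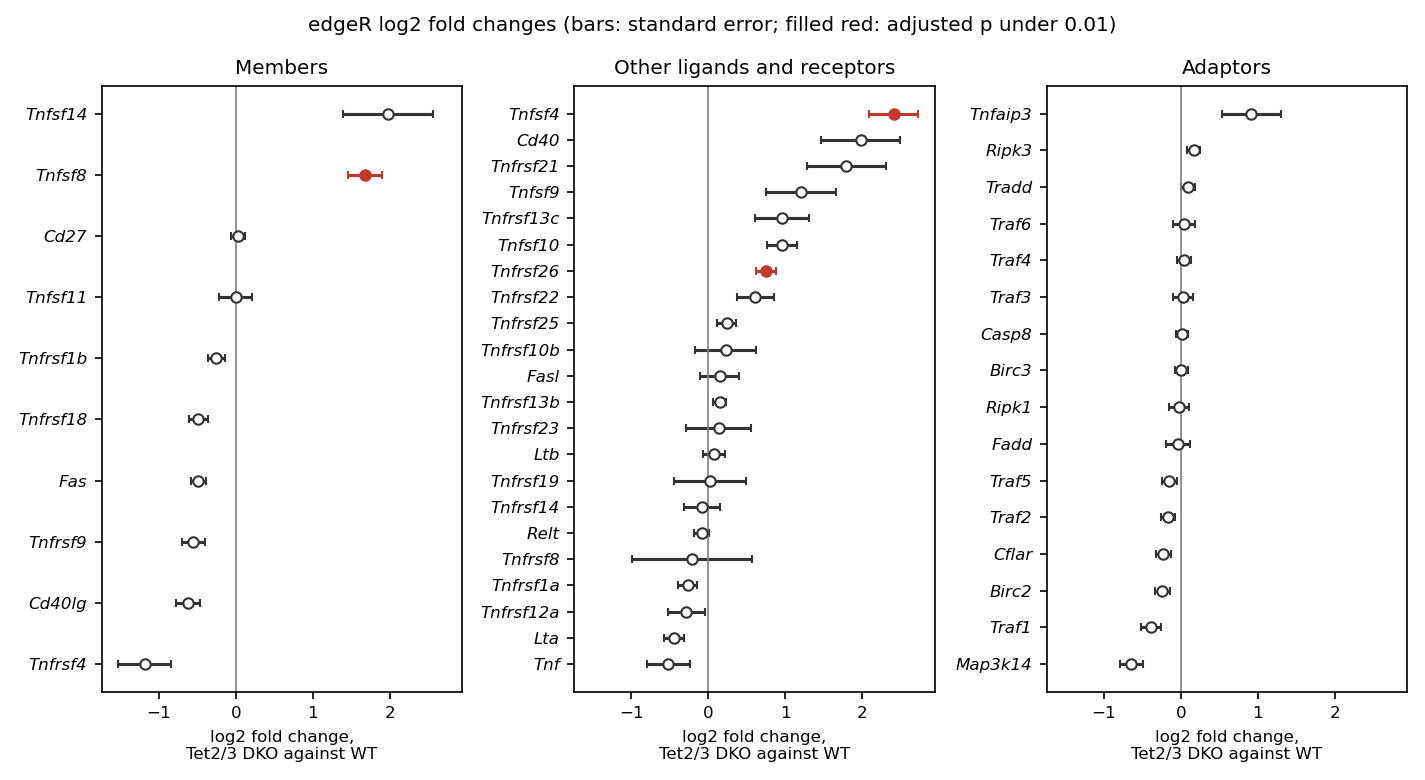
Log2 fold change of *Tet2/3* DKO against WT cells by edgeR for the members, the other ligands and receptors tested and the adaptors, with standard errors as bars; filled red points have an adjusted p under 0.01. The 3 filled points, *Tnfsf8* (1.68), *Tnfsf4* (2.40) and *Tnfrsf26* (0.74), all lie to the right of 0, and no adaptor is filled.

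Other cell types were checked by their markers, although the gates are set against many of them: CD8 T cells by the CD8-negative gate, invariant NKT cells by the tetramer-negative gate, and gamma-delta T, B, NK and myeloid cells by the TCRβ-positive gate. The 10 markers of CD4 SP T cells summed to 14300 to 15180 CPM in WT and to 14930 and 13110 in DKO cells, and 3 of them passed the threshold, all lower, among them *Cd4* and *Cd5*. The 5 gamma-delta T cell markers summed to 28.5 to 30.5 CPM in WT and to 235 and 376 in DKO cells, with 3 called higher, all constant regions of the gamma chain, which carried the sum. *Trdc* overlapped between the genotypes, and *Sox13* was lower in both DKO libraries, at 0.24 and 0.22 CPM against 0.95 to 1.08 in WT (adjusted p = 0.0361). The 4 invariant NKT cell markers summed to 228 to 259 CPM in WT and 282 and 407 in DKO cells, with 2 called higher (*Zbtb16* and *Klrb1c*). *Il2rb*, which was not called and overlapped between the genotypes, made up most of that sum. The 4 NK cell markers summed to 1.90 to 2.82 CPM in WT and 9.30 and 22.8 in DKO cells, with 2 called higher, *Ncr1* and again *Klrb1c*, which is on both lists. The 2 CD8 T cell markers summed to 68.8 to 77.1 CPM in WT and 34.3 and 35.8 in DKO cells, and most of the sum was *Cd8b1*, which was called lower. *Cd8a* lay the other way, with 2.71, 2.91 and 5.39 CPM in WT and 5.77 and 8.67 in DKO cells (log2 fold change 0.94, adjusted p = 0.128 by edgeR). The 6 double-positive thymocyte markers, of which *Rag1* was at 0 in all libraries, summed to 159 to 182 CPM in WT and 156 and 116 in DKO cells, and the 7 thymic stroma markers to 157 to 193 and 122 and 172 CPM, with 3 markers tested and none called in either list. Without DKO replicate 1, *Il2rb*, *Cd44*, *Klre1* and the stroma marker *Epcam* were also past the threshold, all higher, and *Cd1d1* of the double-positive list was lower, and without DKO replicate 2 the stroma marker *Pecam1* was lower. *Tnfsf8*, *Tnfsf14* and *Tnfsf4* were highest in DKO replicate 2, as were the summed markers of gamma-delta, invariant NKT, NK, myeloid and regulatory T cells. Their part in the levels of these ligands was not tested.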

How the data were processed

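RNA of 5 libraries was sequenced after SMART-seq amplification. The authors trimmed reads with fastp 0.21.0, aligned them with STAR 2.7.5a to mm10 (GRCm38.100 annotation) and deposited raw read counts per gene, without normalization. Reads on several genes or places were left out. The unstranded counts were used here, since the kit does not mark strand. Symbols, exon lengths and positions came from GENCODE M21 (55227 of 55487 identifiers matched).

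All genes were tested together with edgeR 4.0.16 in R 4.3.3 (quasi-likelihood test, newer dispersion moderation, TMM scaling, filterByExpr by genotype, Benjamini-Hochberg adjustment over 13525 genes, threshold 0.01), without a replicate block. Intervals cover 95%. Alternatives included DESeq2, the tool of the authors, here in version 1.42.0. The test was tried on simulated data. Two-sided p-values set the difference between genotypes against the spread between mice, moderated over all genes.

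The members, lists and tests were chosen with earlier results of these data known. Named genes are the members, their binding partners, other family genes called, and those whose groups do not overlap and whose log2 fold change is 1 or more in size. The deposited T cell receptor clonotype tables were not used.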

Additional observations from a re-analysis of the deposited data

How the results depend on the processing

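Of 160 values of the 10 members under 16 settings besides the main one, 127 kept their direction and their side of the threshold. Genes called numbered 530 as reported, 1027 with DESeq2 and 1173 at a threshold of 0.05. They numbered 1345 without both libraries of uncertain sex, an alternative chosen after seeing the data, and 110 to 1311 with 1 library left out, the lowest without WT replicate 2 and the highest without DKO replicate 1, where 1 DKO library is left and is assumed to vary like WT. Members called went from 1 to 5 with DESeq2, 0 with robust moderation, 4 at 0.05, 5 without both libraries and 0 to 4 with 1 left out. Other ligands and receptors went from 2 to 1 without the filter on low counts, 4 at 0.05, 6 without both libraries and 0 to 5 with 1 left out. Adaptors went from 0 to 1 with DESeq2, at 0.05 and without both libraries, and 0 to 2 with 1 left out.

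Replicate numbers are shared between the genotypes but come from different mice. For that reason the numbers were not taken to pair them. Deviations of same-numbered libraries correlated at 0.015 and 0.004 across genes. This check cannot decide on a pairing, because the deviations of 2 DKO libraries from their mean mirror each other. With a replicate block 358 genes, 1 member, 0 other ligands or receptors and 0 adaptors were called (*Tnfsf4* adjusted p = 0.0132, *Tnfrsf26* 0.0354), and the log2 fold changes of *Tnfsf11* (0.0079) and *Tnfrsf8* (0.1227) turned sign.

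Among the members, their binding partners, *Tnfrsf21* and *Tnfrsf26*, signs turned for 4 whose reported value is near 0 or rests on few counts. *Cd27* was -0.0251 without both libraries and -0.0063 to 0.0848 with 1 left out. *Tnfsf11* was 0.0012 with RLE size factors, 0.0056 with DESeq2, 0.0128 with a stricter filter, 0.0071 with legacy moderation, 0.0273 on first strand counts and 0.2786 without both libraries. With 1 left out *Tnfsf11* ran from -0.4766 to 0.363, *Tnfrsf14* from -0.3966 to 0.1345 and *Tnfrsf8* from -2.2867 to 0.6971, and *Tnfrsf8* was 0.3153 without both libraries. Of the adaptors and markers named, *Tnfaip3* turned from 0.91 to -0.17 and *Il2ra* from -0.52 to 0.12 without DKO replicate 1, *Ikzf2* from 0.37 to -0.39 likewise, and *Ctla4* from 0.09 to -0.66 and *Nrp1* from 0.81 to -0.09 without DKO replicate 2. The cause of these shifts was not tested. Depth limits the test of *Tnfrsf8* (not tested with the stricter filter or on counts of either strand, as *Cd40* and *Tnfrsf21* were not with the stricter filter and on 1 strand), and *Cd70*, *Ltbr* and *Tnfrsf11a* had too few counts to be tested.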
